A study of Mus musculus with 12 samples.

Results

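Merging the autosomal ATAC-seq peaks of 12 mouse bone marrow-derived macrophage (BMDM) libraries gave 144562 regions, and 234 of them were called in 0 of 4 oxLDL and in all 4 untreated libraries of the ApoE KO cohort. In the untreated lists, the median peak of these 234 regions, described here, was weaker than that list's median peak. Their working label, open only without oxLDL, did not carry over to the whole-list calls of the other cohort, whose lists are longer. Both of its oxLDL libraries called 231 of the 234 (98.7%), against 83% of the regions called in at least 1 ApoE KO library. In equal-length lists of that cohort, 49.6% of 228 ranked regions had lower score ranks with oxLDL in both genotypes, against 33.1% of the regions called in the ApoE KO cohort. The 234 regions are therefore called the untreated-only calls of the ApoE KO cohort, after the rule that chose them.

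ATAC-seq maps open chromatin by letting a transposase cut and tag accessible DNA, and a caller then lists the peaks. BMDMs are macrophages grown from bone marrow, and oxidised LDL (oxLDL) is the modified lipoprotein that loads them with cholesterol. SWI/SNF is a complex that moves nucleosomes, and the Smarcd1 gene gives its subunit Baf60a. In macrophages, enhancers are held open by lineage factors such as PU.1 and by signal-dependent factors, and most open sites that vary between states lie away from promoters.

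The ApoE KO cohort held 4 groups with 2 libraries each. Baf60a KO cells carried floxed Baf60a with Lyz2-Cre, which acts in myeloid cells, and WT cells carried floxed Baf60a without Cre. All 8 libraries lacked ApoE and came from cryopreserved cells. Each genotype was given oxLDL at 50 µg/ml for 48 h or left untreated. The first cohort held 1 library each of oxLDL KO, oxLDL WT, untreated KO and untreated WT cells, with an Omni-ATAC protocol and no ApoE status in the labels. Whether replicates came from different animals or cultures is not stated in the labels.

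The ApoE KO lists held 24397 to 35589 peaks with oxLDL and 29064 to 44524 without, so the ranges overlapped over both genotypes together. In WT both oxLDL lists (27571 and 24397) were shorter than both untreated lists (29064 and 39303). In KO the oxLDL lists held 35589 and 33934 peaks and the untreated lists 44524 and 33267. First-cohort lists held 80394 and 93867 autosomal peaks with oxLDL, against 106477 and 138132 without. No list holds reads, so depth is unknown and a region without a call can still hold signal under the caller's threshold. Near a gene boundary, 8 to 10 of 10 macrophage markers had a called region in oxLDL and 9 to 10 in untreated ApoE KO libraries. B cell markers had 0 of 6 against 0 to 1, T and NK cell markers 2 to 3 of 6 against 2, neutrophil markers 1 of 6 in each, dendritic cell markers 1 to 2 of 4 in both, and mast cell and basophil markers 0 of 4 in every library. Erythroid markers had 0 of 3 in each oxLDL library against 1 to 2 of 3 in untreated ones; the part of such cells in the result was not tested. The region at the start of the targeted gene Smarcd1 (mm10, chromosome 15, 99701894 to 99702982) was called in all 12 libraries, and the deleted exons are not given, so it does not check the genotype.

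Of the 234 regions, 13 overlapped the promoter window of a gene in RefSeq (GRCm38.p6, 250 bases before to 50 after the start). Shown are 6 of these windows, which held either all 4 untreated summits or a motif match. In the first 4, all 4 untreated summits fell inside the window, and capitals mark the stretch from the first to the last summit with 10 bases added on each side. Ech1 encodes a fatty acid beta-oxidation isomerase (chr7:28825088-28825387, plus strand), Ino80b a subunit of the INO80 remodelling complex (chr6:83125070-83125369, minus strand), Zbtb42 a zinc finger factor (chr12:112678590-112678889, plus strand) and Tbx20 a T-box factor of the heart (chr9:24774254-24774553, minus strand).
Ech1: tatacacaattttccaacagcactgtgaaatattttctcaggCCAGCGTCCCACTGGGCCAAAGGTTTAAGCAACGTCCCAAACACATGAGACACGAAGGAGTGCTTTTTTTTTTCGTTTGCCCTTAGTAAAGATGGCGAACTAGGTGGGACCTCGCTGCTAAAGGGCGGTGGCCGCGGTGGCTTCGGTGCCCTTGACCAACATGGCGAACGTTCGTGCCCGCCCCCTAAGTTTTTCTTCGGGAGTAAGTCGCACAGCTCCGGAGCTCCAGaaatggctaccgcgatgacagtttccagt
Ino80b: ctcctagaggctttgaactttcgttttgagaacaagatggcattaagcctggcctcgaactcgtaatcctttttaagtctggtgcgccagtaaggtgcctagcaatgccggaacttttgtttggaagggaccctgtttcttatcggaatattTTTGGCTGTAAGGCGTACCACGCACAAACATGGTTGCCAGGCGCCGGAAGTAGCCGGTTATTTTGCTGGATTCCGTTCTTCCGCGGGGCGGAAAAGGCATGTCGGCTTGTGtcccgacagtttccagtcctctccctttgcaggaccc
Zbtb42: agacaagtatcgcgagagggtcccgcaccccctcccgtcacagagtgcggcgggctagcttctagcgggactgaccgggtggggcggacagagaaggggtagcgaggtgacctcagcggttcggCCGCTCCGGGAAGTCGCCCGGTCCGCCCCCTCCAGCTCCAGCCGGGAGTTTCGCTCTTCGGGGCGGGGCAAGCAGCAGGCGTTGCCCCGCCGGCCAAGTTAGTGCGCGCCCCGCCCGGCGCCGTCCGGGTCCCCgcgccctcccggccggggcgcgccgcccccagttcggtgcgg
Tbx20: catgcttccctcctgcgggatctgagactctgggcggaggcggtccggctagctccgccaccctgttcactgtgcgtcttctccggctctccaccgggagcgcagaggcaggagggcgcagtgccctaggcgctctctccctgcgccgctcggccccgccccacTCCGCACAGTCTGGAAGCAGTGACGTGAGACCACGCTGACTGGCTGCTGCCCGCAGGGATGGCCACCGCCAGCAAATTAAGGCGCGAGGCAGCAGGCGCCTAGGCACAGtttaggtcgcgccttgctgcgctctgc
In the next 2, capitals mark a motif match: TGANTCA, the AP-1 motif, at Zkscan1, a zinc finger gene (chr5:138084834-138085133, plus strand), and the IRF motif, GAAA repeated on the same strand with 2 bases between, at Cd300c2, a receptor gene of the myeloid CD300 family (chr11:115001831-115002130, minus strand).
Zkscan1: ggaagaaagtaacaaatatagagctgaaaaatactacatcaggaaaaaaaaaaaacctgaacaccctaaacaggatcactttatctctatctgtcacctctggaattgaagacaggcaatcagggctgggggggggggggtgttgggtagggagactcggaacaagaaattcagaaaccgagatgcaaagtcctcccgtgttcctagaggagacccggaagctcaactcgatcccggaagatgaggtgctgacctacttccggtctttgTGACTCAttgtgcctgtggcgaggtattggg
Cd300c2: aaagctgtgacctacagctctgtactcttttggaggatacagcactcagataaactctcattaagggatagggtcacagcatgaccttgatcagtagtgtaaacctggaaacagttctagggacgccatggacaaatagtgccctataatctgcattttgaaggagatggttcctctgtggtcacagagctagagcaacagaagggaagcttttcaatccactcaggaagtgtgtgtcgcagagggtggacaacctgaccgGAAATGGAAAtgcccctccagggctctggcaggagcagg

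The windows at Zbtb42 and Tbx20 were rich in CpG, with 40 and 26 CpG dinucleotides and 74.7% and 68.3% G and C. Those at Ech1 and Ino80b had 19 and 17 CpG. Over all 13 windows the medians were 12 CpG and 52.3% G and C, against 7 CpG and 53% over all 31365 autosomal windows. The lowest CpG count among the 13 was 3, as at Cd300c2. Each motif was searched on both strands. The AP-1 motif matched 1 of the 13 windows and 7.85% of all windows, and the IRF motif 1 of 13 and 3.45%. Matches of GAGGAAGT (PU.1), TTGCNNCAA (C/EBP) and TGACGTCA (CREB/ATF) numbered 0 of 13, and these motifs were in 3.25%, 2.07% and 1.83% of all windows. A match describes letters and not binding, and the sequences of the other 221 regions were not analysed here.

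The peaks at the first 4 starts had these values. Fold enrichment, which the authors' caller gives for each peak over its local background, was 4.12 and 2.91 in KO and 2.57 and 4.00 in WT untreated replicates 1 and 2 at Ech1. It was 3.22, 2.46, 2.83 and 2.92 at Ino80b in the same order, 2.64, 2.46, 2.10 and 2.98 at Zbtb42, and 2.78, 2.31, 2.57 and 2.35 at Tbx20. The highest of these 16 values was thus 4.12, and the 4.00 at Ech1 in WT replicate 2 stood at percentile 57.5 of its list. The regions called in all 8 libraries had medians of 4.43 to 6.74. A fold enrichment belongs to its own list and was not tested between libraries.

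Exchanging the treatment labels gave 1 region. Of 56646 regions called in at least 1 ApoE KO library, 1 (0.00177%) was called in all 4 oxLDL and 0 of 4 untreated libraries, against the 234 (0.413%) called the other way. The rule fixes the count of 234, so it is given with no test. A missing call does not show a closed region. Had signal fallen, fewer cells with a region open and less open chromatin per cell could not be told apart in these bulk samples. The single oxLDL-only region sat 12 bp from Gpr39, a zinc-sensing receptor gene (chromosome 1, 125676749 to 125677220), with fold enrichments of 3.11 and 2.32 in KO and 3.30 and 2.82 in WT oxLDL replicates 1 and 2. It was called in all 4 first-cohort libraries.

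The other 4-against-4 divisions of the design gave unequal counts too. Regions called in all 4 Baf60a KO and no WT library numbered 277 (0.489%), and the reverse 4 (0.00706%). With oxLDL KO and untreated WT set against oxLDL WT and untreated KO, 23 regions (0.0406%) were called in the first 4 and 4 (0.00706%) in the other 4. These counts share the same 8 libraries and are not independent.

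**Figure D1:**
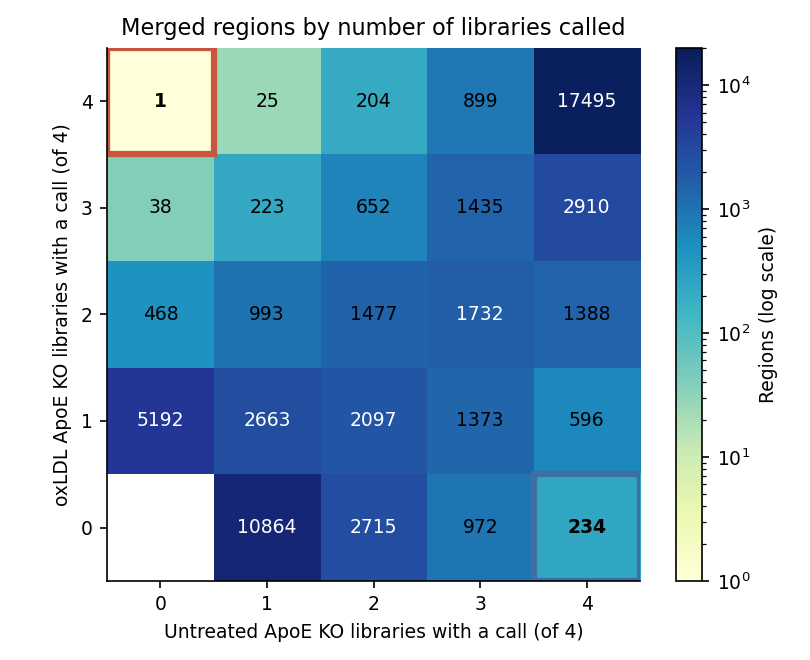
Number of merged regions by how many of the 4 oxLDL libraries (vertical axis) and of the 4 untreated libraries (horizontal axis) of the ApoE KO cohort called them, with colour on a log scale. The blue frame marks the 234 untreated-only regions and the red frame the 1 oxLDL-only region; the cell beside the blue frame holds 972 regions and the cell above it 596.

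The 234 regions sat at the edge of a continuum of calls, as the grid of calls shows. Among regions called in all 4 untreated libraries, 234 were called in 0 oxLDL libraries, 596 in 1, 1388 in 2, 2910 in 3 and 17495 in 4. Just outside the rule, the 596 regions had their single oxLDL call in KO replicate 1 (232), KO replicate 2 (209), WT replicate 1 (113) or WT replicate 2 (42). The score of that call, a whole number equal to 10 times the -log10 q for nearly all peaks, had a median of 46 and ran from 13, the lowest score in any of these lists, to 185. Another 972 regions were called in no oxLDL and 3 untreated libraries, and the missing library was KO replicate 1 in 45, KO replicate 2 in 351, WT replicate 1 in 467 and WT replicate 2 in 109.

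How many regions met the rule depended on the length of the lists. Cut to the 24397 peaks with the highest score, the length of the shortest, the 8 lists gave 34 oxLDL-only (0.0943%) and 71 untreated-only regions (0.197%), and 16 of the 234 regions overlapped one of these 71. When a call needed peaks over at least 50% of the merged region, 3 oxLDL-only and 116 untreated-only regions were found, and 3 of the 234 remained. With peaks of score 30 or more alone, the counts were 0 and 213, and 133 of the 234 remained. Leaving out a library loosens the rule, and the untreated-only count was then 466 without oxLDL KO replicate 1, 443 without oxLDL KO replicate 2, 585 without untreated KO replicate 2 and 701 without untreated WT replicate 1. In KO libraries alone 540 regions were oxLDL-only and 1975 untreated-only, and in WT libraries alone 159 and 2645. The 3 libraries with L001 in their file names are oxLDL KO replicate 1 and both untreated WT, and without them the counts were 23 and 2194.

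**Figure D2:**
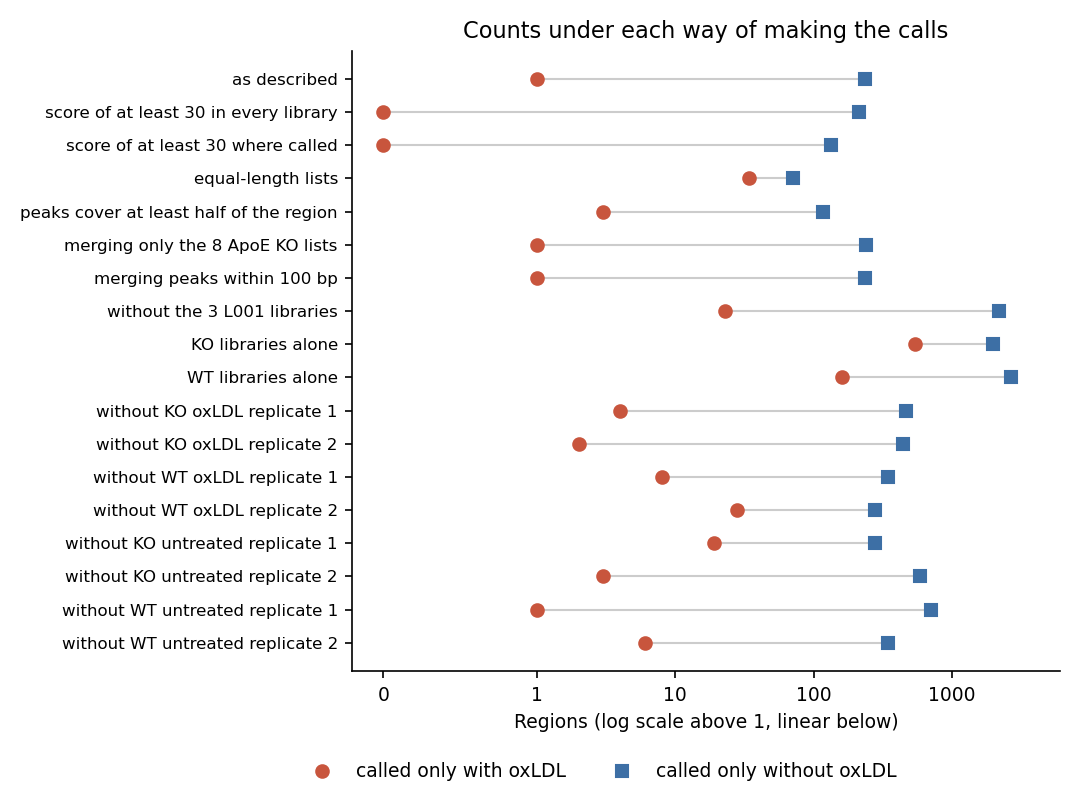
Regions called only with oxLDL (red circles) and only without it (blue squares) in the ApoE KO cohort, by how calls were made; the horizontal axis is logarithmic above 1. The untreated-only count is above the oxLDL-only count on every line, and the gap is smallest, 34 against 71, in lists of equal length.

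Most of the 234 regions had peaks below the median of their list. The mean fold enrichment over the 4 untreated libraries ran from 2.15 to 4.53 with a median of 3.08. By library the median was 3.57 and 2.79 in KO replicates 1 and 2, and 2.91 and 3.01 in WT replicates 1 and 2. Regions called in all 8 libraries had medians of 6.74 and 4.61 in KO, and 4.43 and 5.55 in WT. Within their own lists, the untreated-only peaks lay at median percentiles of 36.4 and 24.5 in KO and 24.8 and 32.8 in WT. In each list 183 to 214 of the 234 were below the list's median, and the highest percentile was 82.0, in KO replicate 1. Their peaks covered little sequence, with medians of 187 to 318 bp per region and library, against 561 to 841 bp for regions called in all 8.

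**Figure D3:**
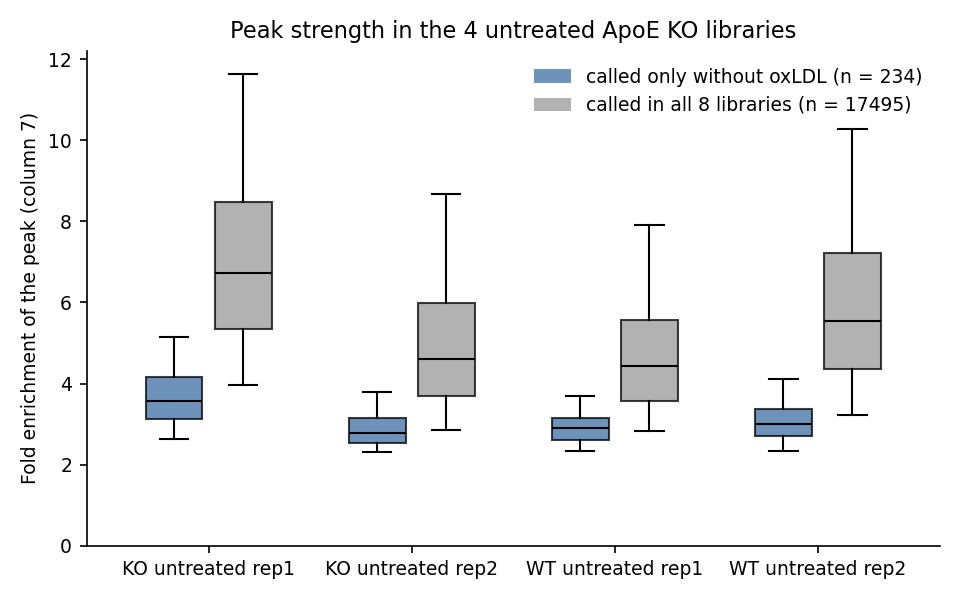
Fold enrichment of the peak (column 7 of the authors' lists) in each untreated ApoE KO library, for the 234 untreated-only regions (blue) and the 17495 regions called in all 8 libraries (grey). Boxes give the quartiles with the median as a line, and whiskers the 5th to 95th percentiles; the blue medians of 2.79 to 3.57 lie below the lower quartile of the grey boxes of the same library.

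Many of these calls were close to the threshold in at least 1 library. The lowest of a region's 4 untreated scores was under 20 for 20 regions, 20 to 29 for 81 and at least 30 for 133, with a median of 32. The weakest call was that of WT replicate 1, the shortest untreated list, in 103 regions and that of KO replicate 2 in 81. The number of oxLDL calls went along with strength among regions called in all 4 untreated libraries: the median fold enrichment was 3.08 for 0 oxLDL calls, 3.21 for 1, 3.42 for 2, 3.71 for 3 and 5.32 for 4. The median of the lowest score likewise went through 32, 36, 41, 51 and 129. These values come from the same lists as the rule, so they describe the regions and support nothing.

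The first cohort, whose calls the rule did not use, called nearly all of the 234 regions with and without oxLDL. In KO cells 232 (99.1%) were called with oxLDL and 232 (99.1%) without, and in WT cells 231 (98.7%) and 232 (99.1%). The mean difference, oxLDL minus untreated, was -0.214 percentage points (two-sided exact permutation within genotype gave p = 1, where 4 arrangements allow no p under 0.5). All 4 libraries called 231 of them (98.7%), against 82.5% of the regions called in at least 1 ApoE KO library, and both oxLDL libraries called 231 (98.7%), against 83% of those regions and 49.4% of all 144562; all 4 libraries called 48% of all regions. Regions called in exactly 4 of the 8 ApoE KO libraries had all 4 first-cohort calls in 94.4%, those called in all 8 in 99.1% and the KO-only regions in 96.0%. The first-cohort lists are longer, and the boundaries of the regions were drawn with them.

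The 3 exceptions were named after their calls were seen, apart from the Cndp2 region, which the rule for named genes picks. A region 2.76 kb from Cndp2, a carnosine dipeptidase gene (chromosome 18, 84688251 to 84688663), was called in oxLDL KO and in untreated KO and WT, but not in oxLDL WT of the first cohort. Its fold enrichments in the ApoE KO cohort were 2.90 and 3.44 in untreated KO and 2.75 and 2.39 in untreated WT. Regions at Prl2c3, a prolactin family gene (chromosome 13, 12799004 to 12799185), and 6.46 kb from Speer4c (chromosome 5, 15702911 to 15703185) were called in no first-cohort library. Both genes have close copies, and reads of such families can be placed at more than 1 copy. Whether this bears on these calls was not tested.

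Score ranks in the first cohort set some of the 234 regions apart. To compare ranks, each first-cohort list was held to its 80394 highest-scoring peaks, and 228 of the regions were in all 4 of these lists. Their median percentile was 59.2 in oxLDL KO and 63.3 in untreated KO, and 60.9 in oxLDL WT and 65.6 in untreated WT. The median difference within a region was -3.15 percentile points in KO and -4.75 in WT. It was 1.09 and 0.35 over the 44705 regions called in the ApoE KO cohort that were also ranked in all 4 lists. Ranks were lower with oxLDL in both genotypes for 113 of 228 (49.6%), against 33.1% of those 44705 regions. The share was 38.6% of the ranked regions called in exactly 4 of 8 and 29.1% of the ranked KO-only regions. For 56 of 228 (24.6%) ranks were higher with oxLDL in both, against 40.6% of the 44705 regions. Here the share was 34.8% of the ranked regions called in exactly 4 of 8 and 48.0% of the ranked KO-only regions. With 1 library a group these ranks have no replicate check. Markers were counted in the whole first-cohort lists, which are longer without oxLDL. B cell markers had a called boundary region for 1 to 2 of 6 genes with oxLDL and 4 to 5 without. Counts were 1 against 2 of 3 for erythroid markers and 2 to 3 against 3 to 4 of 4 for dendritic cell markers. For T and NK cell markers they were 3 against 3 to 4 of 6. Macrophage (10 of 10), neutrophil (3 of 6) and mast cell and basophil markers (0 of 4) had equal counts with and without oxLDL. The part of such cells in the ranks was not tested.

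**Figure D4:**
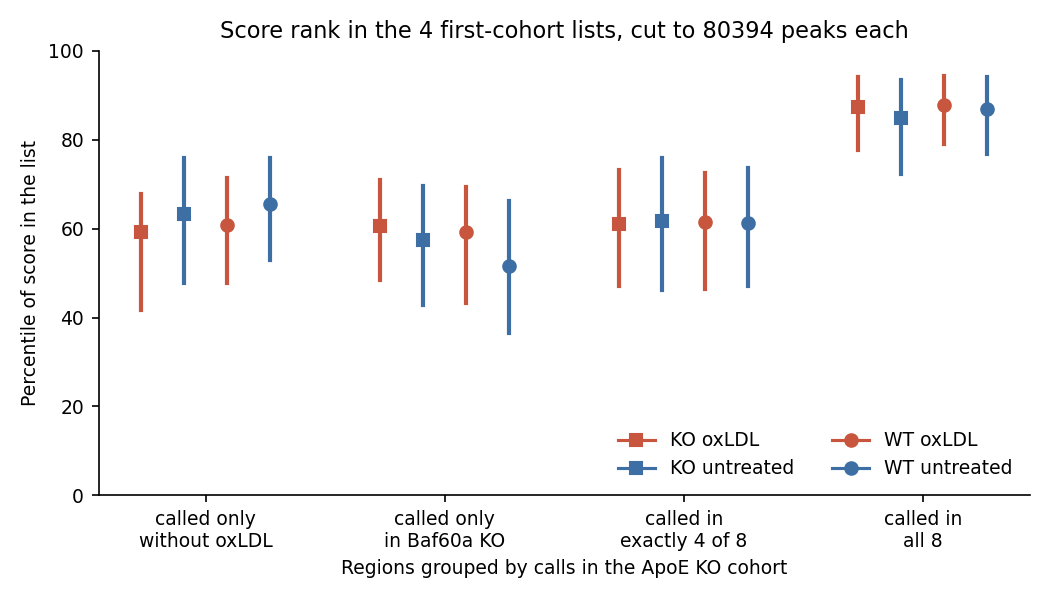
Percentile of the score within each first-cohort list, cut to 80394 peaks (vertical axis), for regions grouped by their calls in the ApoE KO cohort (horizontal axis). Symbols are medians and bars quartiles, with circles for WT and squares for KO; in the untreated-only group the red oxLDL medians (59.2 and 60.9) lie below the blue untreated ones (63.3 and 65.6).

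Cut further to 24397 peaks each, as in the shortest ApoE KO list, the first-cohort lists held 50 of the 234 regions in oxLDL KO against 85 in untreated KO, and 68 in oxLDL WT against 91 in untreated WT. The difference was -12.4 percentage points (p = 0.5 by the same exact permutation, as low as it can go). Of all regions called in the ApoE KO cohort, these lists held 41.2% in oxLDL KO against 40.5% in untreated KO, and 41.3% in oxLDL WT against 41.2% in untreated WT, a difference of 0.417 points. For regions called in exactly 4 of 8 it was -2.92 points, and for those called in all 8 it was 5.81 points. At 80394 peaks it was 0.214 points for the 234 regions.

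The regions whose first-cohort ranks fell furthest below the untreated ones in both genotypes were picked after their values were seen. A region inside Armc9 (chromosome 1, 86263041 to 86264348) stood at percentile 23.5 in oxLDL KO against 70.3 in untreated KO, and at 30.6 in oxLDL WT against 81.4 in untreated WT. A region inside Tek, the angiopoietin receptor gene (chromosome 4, 94768481 to 94769048), stood at 48.3 against 92.3 in KO and 28.6 against 82.9 in WT. A region 54.3 kb from Klf4, a transcription factor gene of the alternative activation list (chromosome 4, 55472540 to 55473195), stood at 32.5 against 71.9 in KO and 28.6 against 69.8 in WT. These 3 regions thus kept a call with oxLDL in the first cohort at a lower rank in both genotypes. Lower ranks in both were also seen 18.4 kb from Tspan18, a tetraspanin gene, 74.8 kb from Samsn1, an adaptor gene of blood cells, and 73.6 kb from Ddx1, an RNA helicase gene.

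Other regions ranked higher with oxLDL in the first cohort although the ApoE KO cohort called them only without it. A region inside Slc6a6, the taurine transporter gene (chromosome 6, 91715100 to 91715420), stood at 53.1 in oxLDL KO against 25.2 in untreated KO, and at 69.2 in oxLDL WT against 45.6 in untreated WT. The Zbtb42 promoter region stood at 56.0 against 40.1 in KO and at 65.4 against 48.4 in WT. A region 27.9 kb from Fth1, the ferritin heavy chain gene (chromosome 19, 9952327 to 9953151), stood at 63.3 against 50.4 and at 69.7 against 55.2. At Ech1 the ranks were 74.5 against 61.7 in KO and 79.6 against 71.9 in WT, and at Ino80b 71.1 against 50.0 and 70.3 against 62.7. Among the other promoter windows printed above, Cd300c2 ranked at 65.4 against 44.5 in KO and 68.5 against 61.3 in WT, while Zkscan1 was lower with oxLDL, at 90.8 against 93.9 and 91.1 against 93.5. Tbx20 was absent from the cut oxLDL KO list, against 4.52 in untreated KO, and stood at 2.62 in oxLDL WT against 0.443 in untreated WT. Higher ranks with oxLDL in both genotypes were also the more frequent case at boundaries in general, with 57.6% of all ranked boundary regions called in the ApoE KO cohort.

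Ranks were also set out by location. Of the 17 ranked regions within 1 kb of a gene boundary, 5 were lower and 8 higher with oxLDL in both genotypes of the first cohort. Of the 102 inside genes 52 were lower and 22 higher, and of the 109 outside genes 56 were lower and 26 higher. Among all ranked regions called in the ApoE KO cohort, 16.7% at boundaries, 36.1% inside and 40.3% outside genes were lower in both. The shares higher in both were 57.6% at boundaries, 37.9% inside and 32.8% outside genes.

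Like most regions, most of the 234 lay away from gene boundaries. By the position of their centre, 19 (8.12%, 95% Clopper-Pearson interval 4.96% to 12.4%, counting error alone) were within 1 kb of the start or end of a protein-coding gene, 102 (43.6%) further inside a gene and 113 (48.3%) outside genes. The boundary share was 11.4% of all 144562 regions and 19.7% of those called in at least 1 ApoE KO library. It was 10.2% of those called in exactly 4 of 8 and 41.8% of those called in all 8. Regions are not replicates, so the interval was not used to test these shares. The boundary share was 4.51% of the 133 regions with scores of at least 30 where called, and 17.2% of the 116 found where peaks had to cover at least 50% of a region. The KO-only regions had 7.94% at boundaries, 52.3% inside and 39.7% outside genes. The median distance to a boundary was 16.7 kb for the untreated-only regions, 14.8 kb for those called in exactly 4 of 8 and 3.42 kb for those called in all 8. The difference in location between the 234 regions and the other regions called in 4 libraries was not tested.

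**Figure D5:**
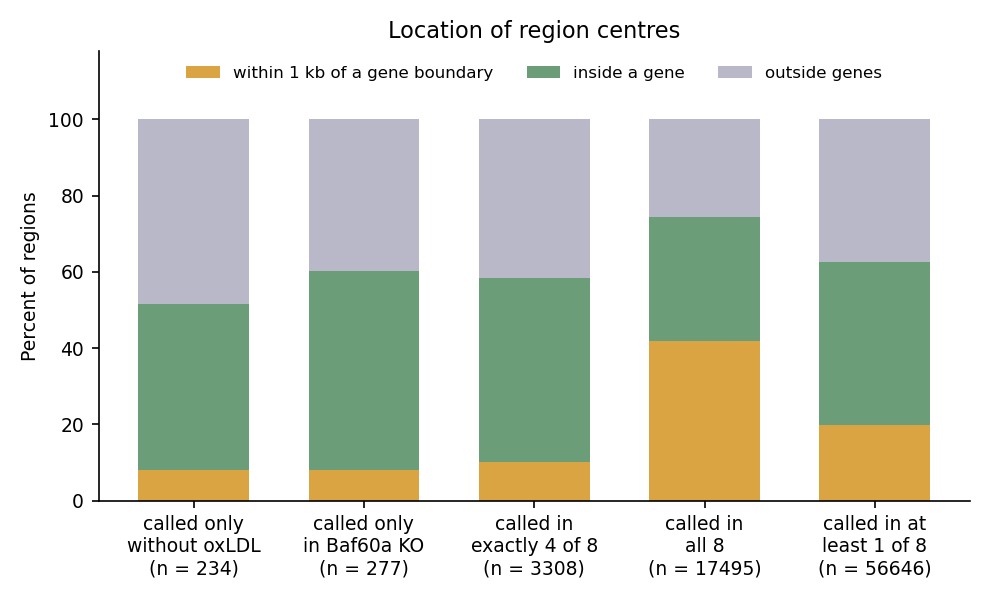
Percent of regions whose centre lay within 1 kb of a gene boundary (yellow), further inside a gene (green) or outside genes (grey), by their calls in the ApoE KO cohort. The boundary share is 8.12% for the untreated-only regions, 7.94% for the KO-only regions and 41.8% for regions called in all 8 libraries.

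The regions were scattered as single sites. The nearest other untreated-only region was a median of 3219 kb away, and 0 of 234 had one within 10 kb. No set of equal size was compared, so this spacing is not read as a trait of the regions. The nearest region called in all 4 oxLDL libraries was a median of 16.2 kb away, and 11 of the 234 (4.70%) lay within 1 kb of one, against 4.78% of the regions called in exactly 4 of 8. The 4 untreated summits of a region spanned a median of 93 bp, and 78 bp in regions called in all 8. Of the 228 genes nearest to the 234 regions, 117 (51.3%) had a region at their boundary that was called in all 4 oxLDL libraries, against 41.1% of all 20665 autosomal protein-coding genes and 47.2% of the genes nearest to a region called in exactly 4 of 8.

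The 10 strongest regions all lay 25.6 kb or more from a gene boundary. Strength here is the mean fold enrichment, to which untreated KO replicate 1, the library with the highest median, adds most. The highest mean was that of a region inside Wdr49, a WD repeat gene (chromosome 3, 75299474 to 75299972), with fold enrichments of 7.05 and 3.53 in untreated KO and 3.15 and 4.38 in untreated WT. A region inside Akap7, a kinase anchoring gene (chromosome 10, 25268171 to 25269142), had 6.42 and 3.19 in KO and 3.47 and 3.78 in WT. In both, replicate 1 of untreated KO, the longest list, had by far the highest value. A region 25.6 kb from Atoh8, a helix-loop-helix factor gene (chromosome 6, 72261070 to 72261756), was more even, with 4.64 and 3.43 in KO and 4.09 and 4.59 in WT, and its 4 summits lay within 5 bp.

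Klf6 and Tnip3 were the nearest genes of 2 others among the strongest 10. A region 559 kb from Klf6, a Krüppel-like factor gene (chromosome 13, 5301956 to 5302797), had fold enrichments of 5.16 and 3.34 in untreated KO and 2.82 and 5.01 in untreated WT. A region 62.3 kb from Tnip3, a gene of an A20-binding inhibitor of NF-kB (chromosome 6, 65527879 to 65528417), had 6.29 and 3.24 in KO and 3.25 and 3.19 in WT. In the first cohort the Klf6 region ranked at 79.7 with oxLDL against 94.6 without in KO, and at 68.7 against 89.1 in WT. The Tnip3 region ranked at 50.4 against 72.7 in KO and at 47.8 against 76.1 in WT. Both thus stood lower with oxLDL in each first-cohort genotype, with calls in all 4 libraries.

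The other 5 of the strongest 10 were near genes of varied function. They lay 50.2 kb from Nap1l1, a histone chaperone gene (mean fold enrichment 4.21), 69.6 kb from Pou1f1, a pituitary factor gene (4.15), inside Arhgef3, a guanine nucleotide exchange factor gene (4.01), 188 kb from Ccdc54 (3.99) and inside Rims2, a synaptic scaffold gene (3.98). All 5 were called in the 4 first-cohort libraries.

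At gene boundaries the strongest region had its centre 291 bp inside Adh7, an alcohol dehydrogenase gene that oxidises retinol (chromosome 3, 138198103 to 138198607). Its fold enrichments were 5.29 and 3.24 in untreated KO and 2.82 and 3.37 in untreated WT, and its first-cohort ranks 27.7 with oxLDL against 44.2 without in KO and 22.5 against 37.3 in WT. Next came Ech1 with a mean of 3.40, Arntl2, a circadian factor gene, with 3.33, Zkscan1 with 3.29, Add3, a membrane skeleton gene, with 3.13, Cwf19l1 with 3.11, and Aldh1b1, a mitochondrial aldehyde dehydrogenase gene, with 3.04. Cwf19l1 and Aldh1b1 ranked higher with oxLDL in both first-cohort genotypes (65.7 against 48.6 and 68.5 against 64.7 for Cwf19l1, and 73.7 against 63.6 and 74.7 against 73.2 for Aldh1b1, KO first in each). Arntl2 did so too, by a smaller step in WT, with 32.5 against 29.2 in KO and 48.5 against 47.7 in WT. Zkscan1, given above, was lower in both, and Add3 was lower in KO, at 43.0 against 68.2, and higher in WT, at 67.8 against 63.8.

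The weakest regions had flat, low values. A region inside Chst12, a sulfotransferase gene (chromosome 5, 140507637 to 140509085), had the lowest mean, with fold enrichments of 2.19 and 1.96 in untreated KO and 2.32 and 2.15 in untreated WT. Just above it were those inside Osbpl3, an oxysterol-binding protein family gene (mean 2.39), within 1 kb of the boundary of Ap2b1, a clathrin adaptor gene (2.44), and inside Snx5, a sorting nexin gene (2.44), and Ptprj, a receptor phosphatase gene (2.46). In the first cohort all 5 were nonetheless called in 4 of 4 libraries, with Chst12 at percentile 63.7 in oxLDL KO against 57.6 in untreated KO and 68.9 in oxLDL WT against 67.4 in untreated WT. Ap2b1 was lower with oxLDL, at 48.3 against 68.8 in KO and 35.9 against 60.2 in WT, and so was Ptprj, at 29.3 against 39.6 and 29.2 against 51.4. Snx5 was higher with oxLDL, at 39.2 against 4.69 in KO and 38.7 against 25.6 in WT, and Osbpl3 stood at 37.0 against 36.0 in KO and 38.0 against 48.1 in WT.

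Genes of the macrophage and lipid lists were rarely the nearest gene. From 21 lists, 375 of 382 genes were found on autosomes, and they were nearest to 10 of the 234 regions (4.27%), against 3.18% of the regions called in the ApoE KO cohort and 3.20% of those called in exactly 4 of 8. Lists of macrophage identity, cholesterol efflux and LXR, PPAR and lipid handling, sterol synthesis, the NRF2 response, AP-1, lysosome and autophagy, SWI/SNF subunits, and mitochondrial biogenesis had 0 regions each. The background shares of these lists were 0.122% to 0.388%, so a count of 0 in 234 lies near them. The modified LDL uptake list had 1 (0.427%, against 0.222% of the regions called in the ApoE KO cohort), inside Stab2, a scavenger receptor gene (chromosome 10, 86928159 to 86929379), with fold enrichments of 3.37 and 2.45 in untreated KO and 2.50 and 2.92 in untreated WT. Its first-cohort ranks were 48.7 with oxLDL against 51.9 without in KO and 50.6 against 58.5 in WT.

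The NF-kB inflammatory list had 2 regions (0.855%, against 0.332% of the regions called in the ApoE KO cohort) and the interferon list 1 (0.427% against 0.178%). One lay outside genes, with the nearest gene being Rel, which encodes the NF-kB subunit c-Rel (chromosome 11, 23805606 to 23806332), with fold enrichments of 4.15 and 3.14 in untreated KO and 2.82 and 3.42 in untreated WT. In the first cohort it ranked at 74.0 with oxLDL against 87.8 without in KO and at 74.3 against 84.2 in WT. Another lay 3.77 kb from Ccl7, a monocyte-attracting chemokine gene (chromosome 11, 82041607 to 82042277), with 3.38 and 2.75 in KO and 3.47 and 2.73 in WT, and its ranks were the other way, 32.9 against 21.3 in KO and 42.7 against 35.1 in WT. The region 4.50 kb from Ddx58, the gene of the RNA sensor RIG-I (chromosome 4, 40244103 to 40244555), had 3.90 and 2.85 in KO and 3.04 and 3.56 in WT, and its ranks were 65.1 against 75.9 in KO and 70.6 against 64.0 in WT. The 3 regions therefore shared the calls that chose them but not the direction of their first-cohort ranks.

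Klf4, the one gene hit in the alternative activation list (0.855% against 0.178%), was the nearest gene of 2 regions, the one at 54.3 kb given above and one 431 kb away (chromosome 4, 55963372 to 55964378). The near one had fold enrichments of 3.02 and 2.93 in untreated KO and 2.65 and 2.92 in untreated WT, the far one 3.65 and 3.43 in KO and 2.71 and 3.92 in WT. The far one ranked at 67.9 with oxLDL against 63.2 without in KO and at 56.4 against 68.4 in WT of the first cohort, so its genotypes went opposite ways. Other listed genes were Cdk1, the mitotic kinase gene (14.1 kb, mean fold enrichment 3.61), Magi2, a synaptic scaffold gene (inside, 3.29), and Klrb1c, which encodes the NK cell marker NK1.1 (11.5 kb, 3.82). The lists of these last 3 genes had 1 region each, too few to read against their background shares.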

How the data were processed

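The 12 libraries were sequenced as paired reads, per the labels' protocols. The submitters' processing notes name mm10, Bowtie2 2.3.4.1, SAMtools 1.2, Trim Galore with cutadapt, bedtools 2.28.0, FastQC and Picard, with MACS3 for the first cohort and MACS2 for the ApoE KO cohort. Their roles, settings and any transposase shift were not stated. The authors called peaks per library, and the deposited lists hold a caller score for each peak. In the ApoE KO cohort the deposited lists add a fold enrichment (column 7) and the -log10 of a p-value and of a q-value.

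Autosomal peaks of all 12 lists sharing at least 1 bp were joined, and a library counted as calling a region in which it had a peak. A region's value in a library is that of its highest peak. A region's place was taken at its centre, against 20665 autosomal protein-coding genes of RefSeq (GRCm38.p6, the assembly of mm10). First-cohort calls were tested with an exact permutation test exchanging treatment labels within genotype. Merging and calling were tested on simulated lists. Scripts ran in Python 3.11.15 with pandas 2.3.3, matplotlib 3.10.9, scipy 1.17.1 and numpy 2.4.6. The regions, gene lists and alternatives were chosen with earlier results of these data known. Named regions were the 10 strongest, the 5 weakest, the 8 strongest at gene boundaries, those called in both untreated and at most 1 oxLDL first-cohort library, those nearest to a listed gene, and the oxLDL-only region; 1 region that this rule picks is not reported here. With no genome sequence, motifs were searched in RefSeq promoter windows in place of the planned summit windows.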

Additional observations from a re-analysis of the deposited data

How the results depend on the processing

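The untreated-only count of 234 stayed within 1.5 times with a score of at least 30 throughout (213), with only the 8 ApoE KO lists merged (238) and with peaks within 100 bp merged (233). It was 133 with a score of at least 30 where called, 71 in lists of equal length, 116 where peaks had to cover at least 50% of a region, 2194 without the 3 L001 libraries, 1975 in KO alone and 2645 in WT alone. The oxLDL-only count of 1 was, for the same 6 settings, 0, 34, 3, 23, 540 and 159, and 0 with a score of at least 30 throughout. Without single libraries the untreated-only count was 276 to 701 and the oxLDL-only count 1 to 28; fewer libraries make the rule looser by construction. The gene-boundary share of 8.12% was 4.51% with a score of at least 30 where called and 17.2% where peaks had to cover at least 50%, and the cause was not tested; it was 26.9% with a window of 5 kb, which is wider by construction. The first-cohort difference of -0.214 points turned to 0.214 points in lists of 80394 peaks, 1 region either way, and was -12.4 points in lists of 24397. Those 2 list lengths were chosen after seeing the data. No paired analysis was possible because, for a block by replicate number, the ApoE KO region counts come from no test and the first cohort carries no such numbers; its permutation paired libraries by genotype. Depth is unknown, so a missing call does not show a closed region.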

Other observations

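Genes with 2 untreated-only regions numbered 6. Osbpl10, an oxysterol-binding protein family gene, held both of its regions inside the gene (chromosome 9, 115162921 to 115163406 and 115185739 to 115186325), with mean fold enrichments of 3.81 and 2.99. Their first-cohort percentiles in lists of 80394 peaks were 12.1 and 42.3 in oxLDL KO against 35.2 and 72.8 in untreated KO, and 15.8 and 34.3 in oxLDL WT against 52.8 and 55.5 in untreated WT. Fat3, a cadherin gene, also held 2 regions inside it (chromosome 9, 16187602 to 16188524 and 16305443 to 16306038), at 60.1 and 53.3 in oxLDL KO against 68.3 and 63.6 in untreated KO, and at 70.3 and 59.9 in oxLDL WT against 79.9 and 69.6 in untreated WT. The 2 regions near Slc18a1, a monoamine transporter gene, were the other way in both genotypes, at 73.8 and 63.5 in oxLDL KO against 72.1 and 60.1 in untreated KO, and at 77.3 and 67.4 in oxLDL WT against 75.8 and 63.2 in untreated WT. The other 3 genes were Klf4, Klf6 and Tbc1d1, a Rab regulator gene. These genes were chosen after their values were seen.

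The 234 regions were spread over all 19 autosomes, from 2.23 per 1000 called regions on chromosome 14 (5 regions) to 5.46 on chromosome 10 (17 regions). None overlapped an annotated miRNA hairpin.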
